A study of Mus musculus with 8 samples.

Results

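Interferon-gamma, its 2 receptor chains and 6 genes that drive or transmit its signal were followed in the pregnant uterus after treatment meant to deplete regulatory T cells. The 9 genes (Ifng, Ifngr1, Ifngr2, Il18r1, Il12rb1, Stat4, Tbx21, Irf1 and Socs1) were taken by symbol from the 49585 Ensembl genes of the deposited count table. All 9 had counts high enough to be tested. All 8 females were 8-week-old Foxp3DTR mice on day 8 of pregnancy, mated with BALB/c males, and each library came from the whole uterus with the fetal tissue in it. In this strain a diphtheria toxin receptor sits at the Foxp3 locus, so the toxin acts on any cell that uses that locus. The DT group received 1 µg of diphtheria toxin by intraperitoneal injection on days 1, 3, 5 and 7, a regimen the labels describe as removing 85% of regulatory T cells, and the control group received PBS on the same days. Controls therefore carried the receptor too, and no toxin-treated females without it were analysed here. There were 4 libraries per group, replicates 1, 3, 4 and 5 for DT and replicates 1, 2, 4 and 6 for PBS. The library titles also carry a code. It is S3 for DT replicates 1 and 3, S4 for DT replicates 4 and 5, S1 for PBS replicates 1 and 2, and S2 for PBS replicates 4 and 6. What the code stands for is not given in the sources used here. No code occurs in both groups, so anything tied to it cannot be told apart from the treatment. Each library was taken to be 1 female, since the labels name 4 females per group, and the p-values measure the spread between these libraries.

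Interferon-gamma is a cytokine made mainly by T cells, natural killer (NK) cells and related innate lymphoid cells, and in the early pregnant uterus NK cells are a known source that acts on the decidual arteries. Interleukin-12, acting through Il12rb1 and Stat4, and interleukin-18, acting through Il18r1, induce it, and Tbx21 (T-bet) is the transcription factor that opens its gene in lymphocytes. The cytokine binds a receptor made of Ifngr1 and Ifngr2, whose signal passes through the kinases Jak1 and Jak2. It switches on Irf1, a transcription factor that drives later target genes, and Socs1, an inhibitor that blocks the kinases and ends the signal.

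The sequences before 3 of these genes are shown because they stand at the start, the middle and the end of this chain: the cytokine, an induced transcription factor of the response and its inhibitor. They are the 250 bases before the most upstream RefSeq start (GRCm38.p6), 5′ to 3′ on the strand of the gene. Capitals mark every match, on either strand, to 3 patterns: TTCNNNGAA, the core of the gamma-activated site (GAS), GAAA, any 2 bases and GAAA again, a core of interferon regulatory factor sites, and TATAAA, the TATA box.
Ifng, chr10:118440796-118441045, plus strand: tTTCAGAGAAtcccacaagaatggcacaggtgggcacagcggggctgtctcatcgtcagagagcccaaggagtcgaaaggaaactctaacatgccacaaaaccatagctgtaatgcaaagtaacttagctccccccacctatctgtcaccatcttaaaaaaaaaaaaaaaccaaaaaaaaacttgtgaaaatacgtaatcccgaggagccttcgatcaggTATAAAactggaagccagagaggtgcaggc
Irf1, chr11:53769764-53770013, plus strand: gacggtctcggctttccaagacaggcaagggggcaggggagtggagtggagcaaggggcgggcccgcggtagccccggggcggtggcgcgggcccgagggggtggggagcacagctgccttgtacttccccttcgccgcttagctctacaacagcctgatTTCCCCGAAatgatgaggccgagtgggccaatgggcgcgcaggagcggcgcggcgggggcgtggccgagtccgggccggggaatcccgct
Socs1, chr16:10785537-10785786, minus strand: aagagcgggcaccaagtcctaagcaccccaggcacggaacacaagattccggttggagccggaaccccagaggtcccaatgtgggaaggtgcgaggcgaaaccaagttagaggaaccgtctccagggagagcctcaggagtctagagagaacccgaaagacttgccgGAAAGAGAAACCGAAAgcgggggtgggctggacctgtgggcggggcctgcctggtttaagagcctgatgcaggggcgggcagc

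Irf1 held 1 match to the GAS pattern, TTCCCCGAA, from 90 to 82 bases before its start. Socs1 held 2 overlapping matches to the interferon regulatory factor pattern, GAAAGAGAAA and GAAACCGAAA, between 83 and 68 bases before its start. Ifng held the TATA box from 30 to 25 bases before its start and 1 match to the GAS pattern, TTCAGAGAA, at the far end of the window, 249 to 241 bases before it. Windows of the same length were searched for all 32851 RefSeq starts in the table. The GAS pattern occurred in 7.02% of them, the interferon regulatory factor pattern in 2.98% and the TATA box in 12.4%. A promoter entry was found for 8 of the 9 genes. None of the other 5 windows (Ifngr1, Ifngr2, Il18r1, Stat4 and Tbx21) held any of the 3 patterns. A match describes letters only and was not tested as a binding site.

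Total counts ranged from 94794512 to 109847604 reads per library. Levels are given as CPM, read counts scaled to the library size after TMM normalisation. Groups were compared with edgeR's quasi-likelihood test over 22693 genes, with Benjamini-Hochberg adjustment and a threshold of 0.05. A log2 difference below is the fitted log2 fold change, DT-labelled minus PBS-labelled. Foxp3 did not separate the groups: it measured 5.41 ± 0.345 CPM in DT and 4.89 ± 0.44 CPM in PBS libraries (SD, n = 4 each), and it shares 18.9% of its 75-base windows with other genes. Libraries are therefore called DT-labelled and PBS-labelled. The uterine markers Hand2 and Hoxa10 were high in all 8 libraries, from 424 to 1056 CPM and from 350 to 440 CPM. PBS-labelled replicates 1 and 2 stood apart in fetal tissue, with conceptus scores (mean z-score of 12 conceptus genes) of 1.11 and 1.84 against -0.882 to -0.0877 in the other 6 libraries. They are also the 2 libraries with the code S1. DT-labelled replicate 1 stood apart in the decidual prolactin Prl8a2, at 687 CPM against 2893 to 8960 CPM in the other 7. For several genes whose value moved much without these 3 libraries, it is given with and without them.

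Of the 9 genes, 1 rose by edgeR, Irf1, and 0 fell, by edgeR or DESeq2 or at an unadjusted edgeR p under 0.05. Over all genes tested 0.322% were called higher. In 5 of the 9 (Ifng, Il18r1, Tbx21, Irf1 and Socs1) the 4 DT-labelled libraries all lay above the 4 PBS-labelled libraries, against 3.33% of all genes tested, and in 0 of the 9 did they all lie below, against 1.73%. The median log2 difference of the 9 genes was 0.47, and that of all genes 0.01. DESeq2 called 4 of the 9 (Ifng, Il18r1, Tbx21 and Irf1), against 1.21% of all genes, and 6 of the 9 had an unadjusted edgeR p under 0.05 with a higher level, against 4.72% of all genes. The single edgeR call depended on which libraries were in the fit. Without DT-labelled replicate 1 both Irf1 and Ifng passed, without PBS-labelled replicate 4 only Il18r1 passed, and 0 of the 9 passed when any single one of the other 6 libraries was left out. In the same fits 115, 43 and 0 of all genes were called higher, so the loss in the last 6 fits was of every higher call in the table. The call of Irf1 was also lost with PBS-labelled replicates 1 and 2 left out together, while leaving out these and DT-labelled replicate 1 kept 1 call, Irf1.

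**Figure D1:**
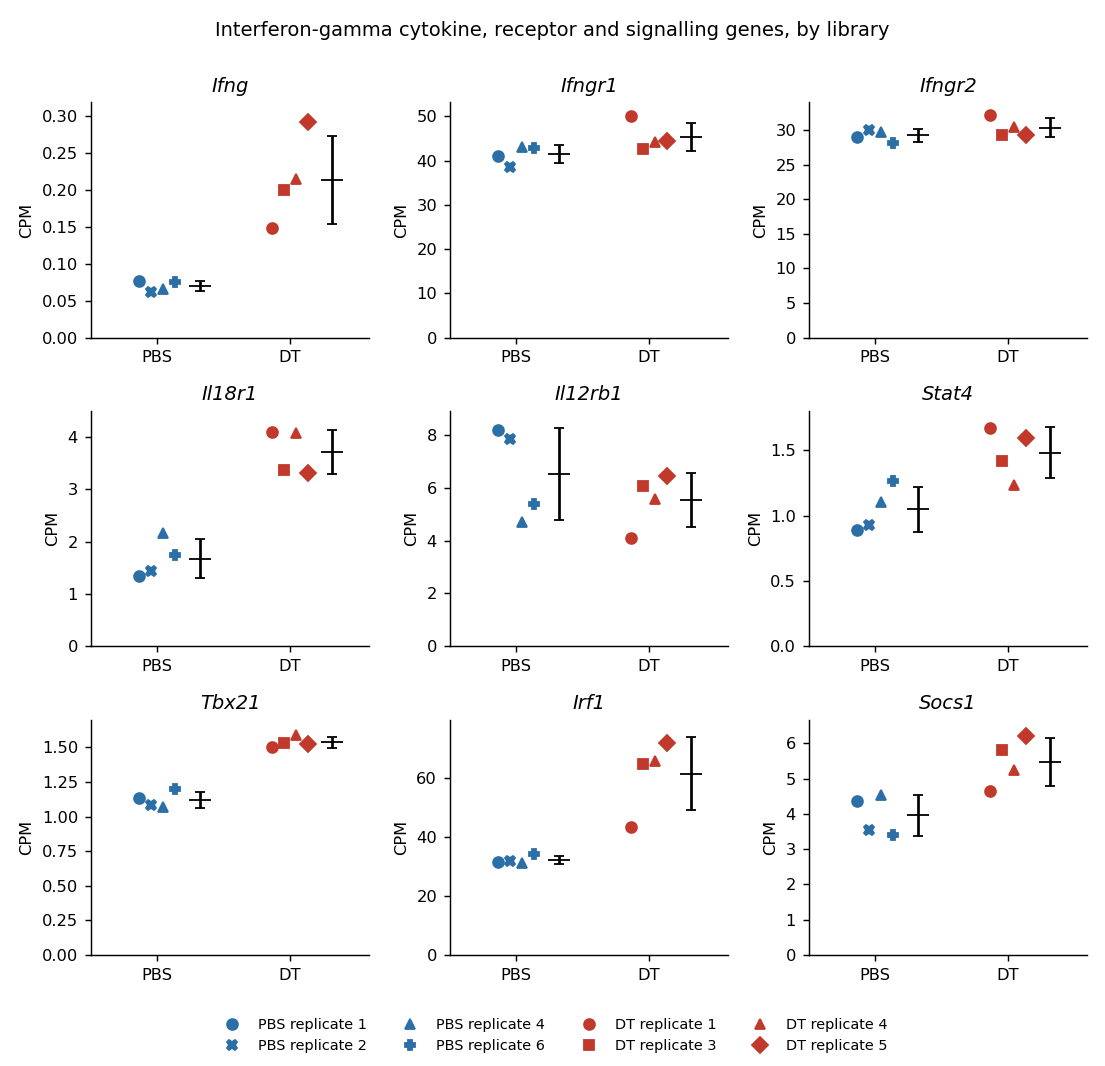
Level in CPM (vertical axes start at 0) of the 9 genes in each library, PBS-labelled in blue and DT-labelled in red, with 1 symbol per replicate. Black bars are the mean and SD of 4 libraries. The groups do not overlap for Ifng, Il18r1, Tbx21, Irf1 and Socs1, and DT-labelled replicate 1 is the lowest of its group for Ifng, Il12rb1, Tbx21, Irf1 and Socs1.

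Ifng (ENSMUSG00000055170, chromosome 10, 118441046 to 118445892, plus strand; gene coordinates here and below are GENCODE M21 on GRCm38) was close to the limit of detection. It had 19, 20, 21 and 30 reads in DT-labelled replicates 1, 3, 4 and 5, and 7, 6, 7 and 8 reads in PBS-labelled replicates 1, 2, 4 and 6. The groups did not overlap, and the PBS-labelled libraries lay close together. Summed over 4 libraries, 90 reads (95% exact Poisson interval 72.4 to 111) stood against 28 reads (18.6 to 40.5), intervals that cover counting error only. In CPM the means were 0.213 ± 0.0593 and 0.07 ± 0.00709 (SD, n = 4 each), a ratio of 3.05, and the log2 difference was 1.59 ± 0.27 (SE; 95% interval 0.97 to 2.21). This did not pass by edgeR (adjusted p = 0.0746) or limma voom (adjusted p = 0.097), and passed by DESeq2 (adjusted p = 0.0186). Without DT-labelled replicate 1, the lowest of its group, it also passed by edgeR (adjusted p = 0.0428). It did not pass without any single one of the other libraries (edgeR adjusted p = 0.122 to 0.266). With the conceptus score as a covariate it did not pass (edgeR adjusted p = 0.173), nor without the 3 libraries that stood apart (0.245). Over all 18 alternative fits the log2 difference of Ifng ran from 1.31 to 1.74, and 3 of them passed. The predicted gene Gm49751, on the same strand, shares 16.2% of the windows of Ifng. It was not among the genes of the deposited count table, so no reads were assigned to it there. How the authors treated reads in the shared stretch is not given in the sources used here.

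Both receptor chains were abundant, and neither passed the test. Ifngr1, the chain that binds the cytokine (ENSMUSG00000020009, chromosome 10, 19591949 to 19610229, plus strand), measured 50, 42.7, 44.3 and 44.5 CPM in the DT-labelled libraries and 41.1, 38.6, 43.1 and 42.8 CPM in the PBS-labelled libraries, in replicate order. The groups overlapped, and the log2 difference was 0.13 ± 0.07 (SE; edgeR adjusted p = 0.571) with a 95% interval of -0.02 to 0.29. Ifngr2, the chain that completes the signalling complex (ENSMUSG00000022965, chromosome 16, 91547072 to 91565623, plus strand), measured 32.2, 29.4, 30.5 and 29.3 CPM and 29, 30.1, 29.8 and 28.1 CPM. Its log2 difference was 0.05 ± 0.06 (SE; edgeR adjusted p = 0.686), with a 95% interval of -0.07 to 0.18. The ratio of Ifngr1 to Ifngr2 reads ran from 1.45 to 1.55 in DT-labelled and from 1.28 to 1.52 in PBS-labelled libraries (exact permutation p = 0.229, adjusted over 6 ratios 0.274).

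Per length, the 9 genes spanned a wide range of levels. RPKM here is CPM divided by the summed exon length in kilobases. In PBS-labelled libraries Ifngr1 was highest at 14.5 ± 0.727 RPKM (SD, n = 4), followed by Irf1 at 8.09 ± 0.332 and Ifngr2 at 7.76 ± 0.237, whose libraries overlapped. Il12rb1 (1.59 ± 0.424) and Socs1 (1.36 ± 0.197) came next and also overlapped. Tbx21 (0.45 ± 0.024), Il18r1 (0.347 ± 0.0779) and Stat4 (0.271 ± 0.0446) followed, each overlapping its neighbour in the order. Ifng was lowest at 0.054 ± 0.00547 RPKM, with no overlap with Stat4. In DT-labelled libraries Irf1 reached 15.4 ± 3.1 RPKM, in the range of Ifngr1 (15.9 ± 1.13), and Il18r1 (0.771 ± 0.0886) lay above Tbx21 (0.618 ± 0.0154), while Ifng remained lowest at 0.165 ± 0.0458.

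**Figure D2:**
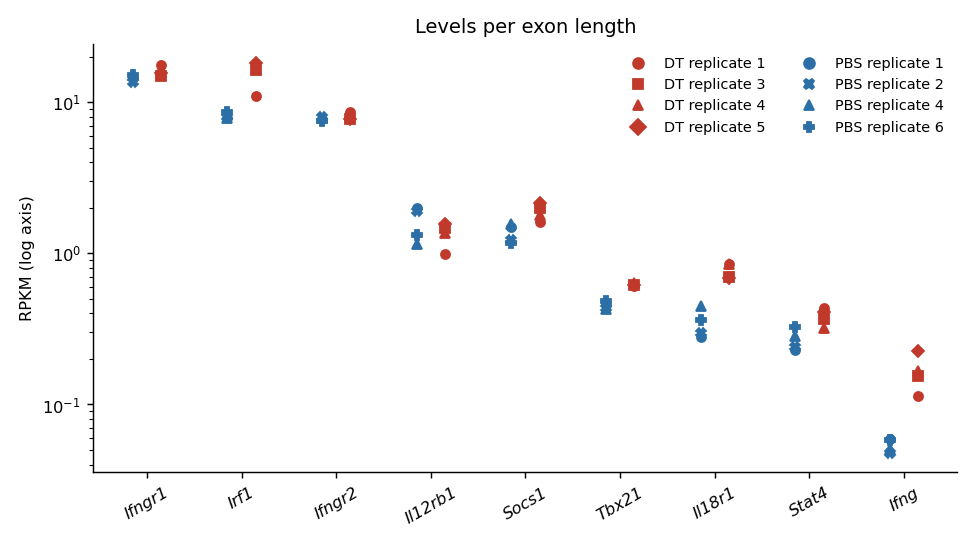
Level per exon length (RPKM, log axis) of the 9 genes, ordered by their PBS-labelled mean, with 1 symbol per library, PBS-labelled in blue and DT-labelled in red. Ifngr1 is highest and Ifng lowest in the PBS-labelled libraries, and Irf1 reaches the level of Ifngr1 in 3 DT-labelled libraries.

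Among the receptors for the inducing cytokines, those for interleukin-18 and interleukin-12 differed in their values. Il18r1, the chain that binds interleukin-18 (ENSMUSG00000026070, chromosome 1, 40465552 to 40500854, plus strand), measured 4.09, 3.38, 4.07 and 3.31 CPM in the DT-labelled and 1.34, 1.43, 2.17 and 1.74 CPM in the PBS-labelled libraries. Every DT-labelled library lay above every PBS-labelled library. The ratio of means was 2.22 and the log2 difference 1.15 ± 0.18 (SE; 95% interval 0.74 to 1.56), with an edgeR adjusted p of 0.0502, beside 8.03e-08 by DESeq2 and 0.0477 by limma voom. Over all 19 alternative fits the log2 difference of Il18r1 ran from 0.87 to 1.30, and 7 of them passed. With the conceptus score as a covariate it was 0.93 (edgeR adjusted p = 0.0556). Without the 3 libraries that stood apart it was 0.87 (edgeR adjusted p = 0.198). PBS-labelled replicates 1 and 2, the libraries with the most fetal transcripts, had the lowest values of Il18r1.

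Il18rap, the chain that joins Il18r1 to form the signalling receptor and lies next to it on chromosome 1, measured 3.14, 2.63, 2.75 and 2.6 CPM in DT-labelled and 1.3, 1.78, 1.86 and 1.74 CPM in PBS-labelled libraries. The groups did not overlap, and the log2 difference of 0.73 ± 0.15 (SE) did not pass by edgeR (adjusted p = 0.145), while DESeq2 called it (adjusted p = 0.000134). The ratio of Il18r1 to Il18rap reads was 1.3, 1.29, 1.48 and 1.27 in DT-labelled and 1.03, 0.803, 1.17 and 1 in PBS-labelled libraries. This difference of 0.42 ± 0.12 on the log2 scale (SE) had no overlap and an exact permutation p of 0.0286, the smallest that 4 against 4 allows, and did not pass when adjusted over the 6 ratios (0.0857). Interleukin-18 itself, Il18, measured 1.13 to 1.53 CPM in DT-labelled and 0.825 to 1.08 CPM in PBS-labelled libraries, also without overlap (log2 difference 0.45 ± 0.16, edgeR adjusted p = 0.541). Il18bp, a secreted protein that neutralises interleukin-18, had a log2 difference of 0.67 ± 0.22 (edgeR adjusted p = 0.509), with DT-labelled replicate 1 at 6.44 CPM inside the PBS-labelled range of 5.32 to 7.8 CPM. Without the 3 libraries that stood apart the log2 difference was 0.56 for Il18rap, 0.25 for Il18 and 1.02 for Il18bp.

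Il12rb1, the chain shared by the receptors of interleukin-12 and interleukin-23 (ENSMUSG00000000791, chromosome 8, 70808449 to 70821424, plus strand), measured 4.08, 6.05, 5.58 and 6.44 CPM in the DT-labelled and 8.18, 7.84, 4.7 and 5.39 CPM in the PBS-labelled libraries. The highest values were those of PBS-labelled replicates 1 and 2, the libraries with the most fetal transcripts, and the lowest was DT-labelled replicate 1. The log2 difference was -0.24 ± 0.22 (SE; edgeR adjusted p = 0.655). It turned to 0.13 without PBS-labelled replicates 1 and 2, to 0.25 without these and DT-labelled replicate 1, and to 0.11 with the conceptus score as a covariate, and it passed in none of these fits. What part fetal tissue has in these values was not tested further. Il12rb2, the second chain of the interleukin-12 receptor, measured 2.12 to 2.61 CPM in DT-labelled and 2.03 to 2.42 CPM in PBS-labelled libraries, a log2 difference of 0.03 ± 0.12 (SE; 95% interval -0.25 to 0.30). It shares 36.9% of its windows with other genes. The ratio of Il12rb1 to Il12rb2 reads overlapped between groups (1.56 to 3.04 against 1.98 to 4.04, exact permutation p = 0.486). The interleukin-12 subunit genes were near the limit of detection: Il12b measured 0.126 to 0.245 CPM against 0.098 to 0.198 CPM, and Il12a was too low to be tested.

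**Figure D3:**
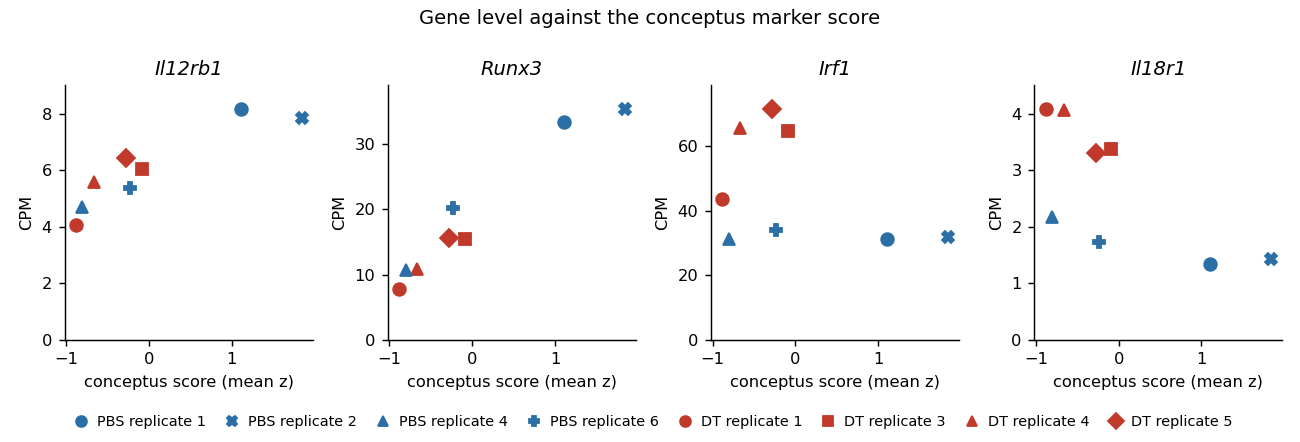
Level in CPM of Il12rb1, Runx3, Irf1 and Il18r1 (vertical axes start at 0) against the conceptus score of the same library, the mean z-score of 12 conceptus genes. PBS-labelled replicates 1 and 2, at scores of 1.11 and 1.84, are highest for Il12rb1 and Runx3 and lie among the other PBS-labelled libraries for Irf1.

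The lymphocyte transcription factors Tbx21 and Stat4 were at low levels and did not pass by edgeR. Tbx21 (ENSMUSG00000001444, chromosome 11, 97098071 to 97115331, minus strand) measured 1.5, 1.53, 1.59 and 1.52 CPM in the DT-labelled and 1.13, 1.08, 1.07 and 1.2 CPM in the PBS-labelled libraries. The spread within each group was small (SD 0.0384 and 0.0597 CPM) and the groups did not overlap. The ratio of means was 1.37, a log2 difference of 0.45 ± 0.11 (SE) that did not pass by edgeR (adjusted p = 0.276) or limma voom (adjusted p = 0.239) and passed by DESeq2 (adjusted p = 0.0282). Over the 19 alternative fits it stayed between 0.43 and 0.57. Stat4, the transcription factor that the interleukin-12 receptor activates (ENSMUSG00000062939, chromosome 1, 51987148 to 52107189, plus strand), measured 1.67, 1.42, 1.23 and 1.59 CPM and 0.893, 0.928, 1.11 and 1.27 CPM. The groups overlapped by 1 library on each side, DT-labelled replicate 4 and PBS-labelled replicate 6. The log2 difference was 0.50 ± 0.17 (SE; edgeR adjusted p = 0.528), 0.26 without the 3 libraries that stood apart, and Gm28177, which overlaps Stat4 on the same strand, shares 19.5% of the windows of Stat4. Gm28177 itself had 8 to 10 reads in DT-labelled and 2 to 7 reads in PBS-labelled libraries, without overlap and in the same direction as Stat4.

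Eomes and Runx3, which act beside Tbx21 in NK and cytotoxic T cells, had the opposite sign with all libraries in the fit. Runx3 measured 7.76, 15.4, 10.9 and 15.7 CPM in DT-labelled and 33.4, 35.5, 10.8 and 20.2 CPM in PBS-labelled libraries, a log2 difference of -1.01 ± 0.39 (SE; edgeR adjusted p = 0.558). It was -0.32 without PBS-labelled replicates 1 and 2, -0.15 without all 3 libraries that stood apart and -0.28 with the conceptus score as a covariate, and passed in none of these fits. Eomes measured 8.1 to 10.6 CPM in DT-labelled libraries, 8.21 and 10.7 CPM in PBS-labelled replicates 4 and 6, and 19.1 and 20.4 CPM in the conceptus-rich pair. Its log2 difference of -0.64 ± 0.29 (edgeR adjusted p = 0.571) became 0.05 without the 3 libraries that stood apart. Il2rb, the receptor chain through which interleukin-15 sustains NK cells, followed the same order, at 42.9 to 60.6 CPM in 6 libraries and 98.2 and 109 CPM in the conceptus-rich pair, PBS-labelled replicates 1 and 2. This pair was also highest for the NK cell markers Gzmc and Itga2 and the endothelial markers Cdh5 and Pecam1. It was lowest for the NK cell marker Klrk1 (2.95 and 3.41 CPM). What part fetal tissue or other cells have in these values was not tested.

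Irf1 (ENSMUSG00000018899, chromosome 11, 53770014 to 53778374, plus strand), the only one of the 9 genes that passed by edgeR, is the gene with the TTCCCCGAA match shown above. It measured 43.5, 64.9, 65.7 and 71.7 CPM in the DT-labelled and 31.4, 31.9, 31.3 and 34.1 CPM in the PBS-labelled libraries. The 4 controls lay close together, and DT-labelled replicate 1 lay between them and the other 3 DT-labelled libraries. Irf1 rose 1.91-fold, with means of 61.4 ± 12.3 CPM in DT-labelled and 32.2 ± 1.32 CPM in PBS-labelled libraries (SD, n = 4 each) and a log2 difference of 0.93 ± 0.14 (SE; 95% interval 0.61 to 1.26; edgeR adjusted p = 0.0491). DESeq2 called it (adjusted p = 4.36e-06) and limma voom did not (adjusted p = 0.0655). The edgeR call was also lost with RLE size factors (adjusted p = 0.0548) and with the conceptus score as a covariate (adjusted p = 0.102). Without DT-labelled replicate 1 the log2 difference was 1.07 (edgeR adjusted p = 0.000708), and without each of the other 7 libraries it was 0.85 to 0.96 and did not pass (edgeR adjusted p = 0.0993 to 0.214). Only 0.626% of its windows occur in another gene. Gm17334, which overlaps Irf1 on the opposite strand, had 524 to 616 reads in DT-labelled and 237 to 327 reads in PBS-labelled libraries. Its exons overlap 135 of the 3976 exon bases of Irf1. Without a stated strand setting, reads of the 2 genes in that stretch could not be told apart.

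Socs1, an inhibitor known to be induced by the cytokine (ENSMUSG00000038037, chromosome 16, 10782240 to 10785536, minus strand), measured 4.65, 5.81, 5.24 and 6.21 CPM in the DT-labelled and 4.36, 3.54, 4.54 and 3.4 CPM in the PBS-labelled libraries. The lowest DT-labelled library, replicate 1, lay just above the highest PBS-labelled library, replicate 4. The ratio of means was 1.38 and the log2 difference 0.47 ± 0.14 (SE; 95% interval 0.15 to 0.79), which did not pass by edgeR (adjusted p = 0.462), DESeq2 (adjusted p = 0.106) or limma voom (adjusted p = 0.492). The ratio of Socs1 to Irf1 reads was 0.107, 0.0895, 0.0798 and 0.0866 in DT-labelled and 0.139, 0.111, 0.145 and 0.0997 in PBS-labelled libraries, a difference of -0.44 ± 0.16 on the log2 scale (SE). The groups overlapped, with an exact permutation p of 0.0571 (adjusted over 6 ratios 0.114).

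**Figure D4:**
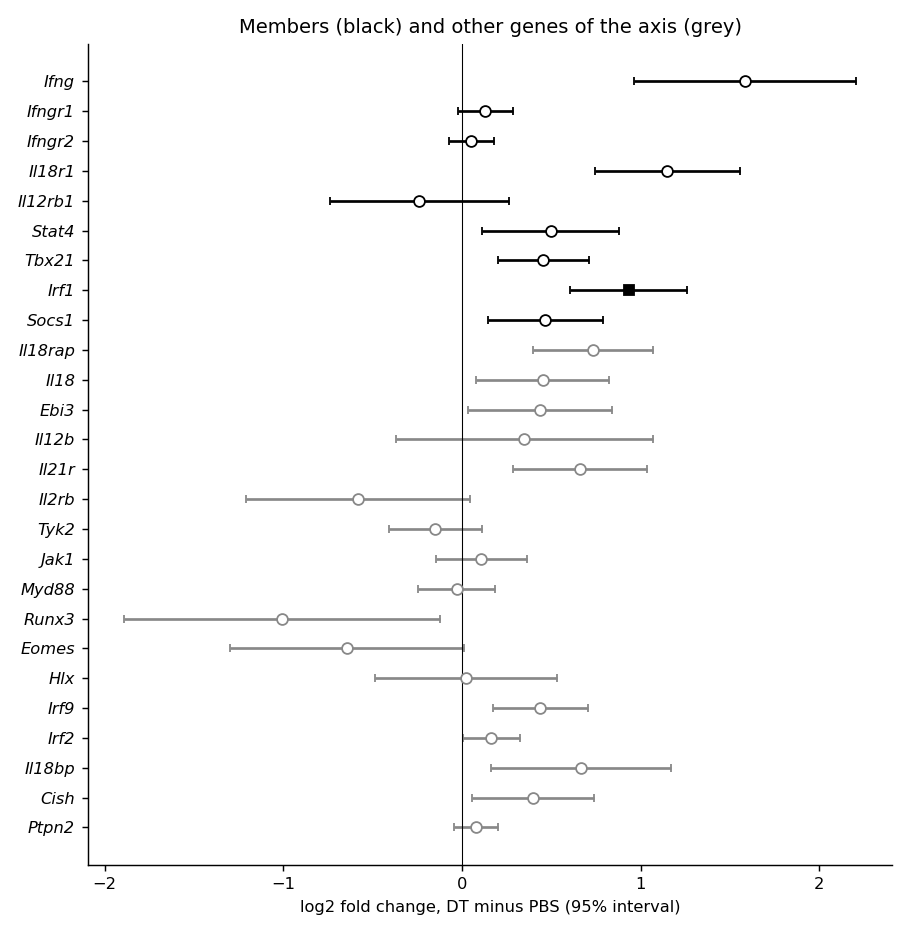
Log2 difference, DT-labelled minus PBS-labelled, with its 95% interval from the edgeR fit, for the 9 genes (black) and the other named genes of the axis (grey). The filled square marks the gene with an adjusted p under 0.05, Irf1, and open circles did not pass. Ifng and Il18r1 have the largest values. Intervals include 0 for Ifngr1, Ifngr2 and Il12rb1 among the 9 genes. Among the others they include 0 for Il12b, Il2rb, Tyk2, Jak1, Myd88, Eomes, Hlx and Ptpn2.

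Beside the 9 genes, 30 others of the same axis were listed, of which 28 could be tested. By edgeR 0 of the 28 passed in either direction, against 0.326% of all genes, while 9 had an unadjusted p under 0.05 with a higher level (4.72% of all genes) and 1, Runx3, with a lower one (3.98% of all genes). DESeq2 called 3 higher (1.21% of all genes), Il18rap and Il21r among them, and limma voom called none (0.225% of all genes). The median log2 difference was 0.09. Among receptors and cytokines, Il21r, the receptor of interleukin-21, had a log2 difference of 0.66 ± 0.16 without overlap (edgeR adjusted p = 0.296), and Ebi3, a subunit of interleukin-27, one of 0.44 ± 0.18. The kinases and adaptor were near 0, with log2 differences of 0.11 ± 0.11 for Jak1, -0.15 ± 0.11 for Tyk2 and -0.03 ± 0.09 for Myd88, the adaptor of the interleukin-18 receptor, whose sign turned (0.085) when libraries were scaled by total count alone.

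Irf9, like Irf1, was lowest in replicate 1 among the DT-labelled libraries. This factor of the type I interferon response measured 54.7 CPM in DT-labelled replicate 1, inside the PBS-labelled range of 44.7 to 56 CPM, and 70.1 to 76.6 CPM in the other DT-labelled libraries. Irf2, which competes with Irf1 for its sites, had a log2 difference of 0.16 ± 0.07 (edgeR adjusted p = 0.571). Of the inhibitors, Cish had a log2 difference of 0.40 ± 0.15 and Ptpn2, a phosphatase that acts on the kinases, one of 0.08 ± 0.05. Without the 3 libraries that stood apart these were 0.13 and 0.11.

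Of 15 genes known to be induced by interferon-gamma, 14 could be tested and 3 rose (Ciita, Nlrc5 and Igtp) and 0 fell, against 0.322% of all genes called higher. In 7 of the 14 the DT-labelled libraries all lay above the PBS-labelled ones (3.33% of all genes), and the median log2 difference was 1.36. Their calls too depended on the libraries in the fit: edgeR called 9 of them (115 of all genes) higher without DT-labelled replicate 1, 1 (43 of all genes) without PBS-labelled replicate 4, and 0 (0 of all genes) without any single one of the other 6 libraries. Cxcl9, a chemokine that attracts T cells, measured 1.88, 2.96, 5.56 and 7.2 CPM and 0.599, 0.866, 0.812 and 0.529 CPM, a log2 difference of 2.65 ± 0.43 that missed the threshold (edgeR adjusted p = 0.0631). A 5.52-fold rise was measured for Igtp, a GTPase of cell-autonomous immunity (edgeR adjusted p = 0.0314), with 28.5 CPM in DT-labelled replicate 1 and 67 to 82.2 CPM in the other 3. Not every target was higher: Ido1, an enzyme of tryptophan breakdown chosen here after its values were seen, measured 0.21 to 1.24 CPM in DT-labelled and 0.463 to 2.08 CPM in PBS-labelled libraries, with a log2 difference of -0.60 ± 0.62.

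Genes whose profile over the 8 libraries was most like that of 3 of the 9 were sought among 13817 genes, by the root mean square difference of z-scored log2 CPM. This likeness includes the difference between groups. Nearest to Ifng were Nmi (0.145), Igtp (0.181), Tgtp1 (0.184) and Tgtp2 (0.197), the last 2 being near-identical genes whose reads the counting could split. Nearest to Irf1 were Igtp (0.09), Parp11 (0.094), Iigp1 (0.097) and Irgm2 (0.104). Nearest to Stat4 were Rpl7 (0.249), Lipe (0.255), Il33 (0.27) and Milr1 (0.291), at larger distances than the first neighbours of the other 2 genes. Nmi, a protein that binds Stat factors, measured 13.1 to 17.1 CPM in DT-labelled and 10.2 to 11 CPM in PBS-labelled libraries. Its log2 difference of 0.53 ± 0.09 missed the threshold (edgeR adjusted p = 0.075).

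Among cells that can make interferon-gamma, some T cell markers rose and no NK cell marker passed. In a whole organ, fewer or more cells of a type cannot be told apart from less or more RNA per cell. Of 10 T cell markers, 3 rose by edgeR (Cd3e, Cd8b1 and Cd5, against 0.322% of all genes). DESeq2 called 7, against 1.21% of all genes, and limma voom 2, against 0.225%. The log2 difference was negative for 2 of the 10, Cd6 at -0.34 ± 0.48 and Cd247 at -0.09 ± 0.08 (SE). In 7 of the 10 the DT-labelled libraries all lay above the PBS-labelled ones (3.33% of all genes), and none of the markers was at 0 in all libraries. Their summed level was 23.5 to 28.1 CPM in DT-labelled and 17.6 to 22.2 CPM in PBS-labelled libraries, and the largest part came from Cd247, a chain that NK cells use too and whose exons overlap those of Pou2f1. Cd3e, a chain of the T cell receptor complex, rose 4.99-fold (edgeR adjusted p = 0.0314), with 1.33 ± 0.207 CPM in DT-labelled and 0.265 ± 0.102 CPM in PBS-labelled libraries (SD, n = 4 each). Of 10 NK cell markers, 0 passed by edgeR, DESeq2 or limma voom. At an unadjusted edgeR p under 0.05, 2 were higher, the receptor genes Klrk1 and Klrd1 (4.72% of all genes). The 2 lower ones were the granzyme genes Gzma and Gzmc (3.98%). In Klrk1 and Klrd1 the DT-labelled libraries all lay above the PBS-labelled ones (3.33% of all genes), and in 0 of the 10 all below (1.73%). The log2 difference was positive for 6 of the 10 and negative for 4. The summed level of the 10 was 130 to 240 CPM in DT-labelled and 147 to 517 CPM in PBS-labelled libraries. Its largest part came from Gzmc, which reached 296 and 361 CPM in PBS-labelled replicates 1 and 2. Ncr1, the NKp46 receptor of NK cells, measured 6.06, 6.07, 6.08 and 5.16 CPM against 7.25, 6.29, 5.16 and 6.07 CPM, with a log2 difference of -0.08 ± 0.12. That value was 0.04 when libraries were scaled by total count alone. Of 8 markers of macrophages, cells that respond to the cytokine, 2 rose by edgeR (C1qa and C1qb, against 0.322% of all genes). In 4 of the 8 the DT-labelled libraries all lay above the PBS-labelled ones (3.33% of all genes). The summed level was 424 to 446 CPM against 301 to 388 CPM. Its largest part came from Csf1r, which overlapped between groups (94.8 to 195 against 111 to 157 CPM). The log2 difference was negative for 1 of the 8, Cd68, at -0.54 ± 0.41 (SE). The part of these cells in the values of the 9 genes was not tested.

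Within a library, Ifng reads were set against Cd3e and Ncr1. The ratio of Ifng to Ncr1 was 0.0244, 0.033, 0.0352 and 0.0564 in DT-labelled and 0.0105, 0.00984, 0.0128 and 0.0125 in PBS-labelled libraries. The groups did not overlap, and the difference of 1.58 ± 0.26 on the log2 scale (SE) had an exact permutation p of 0.0286, which did not pass when adjusted over the 6 ratios (0.0857). The ratio of Ifng to Cd3e was 0.122, 0.175, 0.16 and 0.181 in DT-labelled and 0.368, 0.375, 0.167 and 0.258 in PBS-labelled libraries. The difference was -0.86 ± 0.30 on the log2 scale (SE), and the groups overlapped (exact permutation p = 0.0857, adjusted over 6 ratios 0.129). Both ratios rest on 6 to 30 Ifng reads per library.

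**Figure D5:**
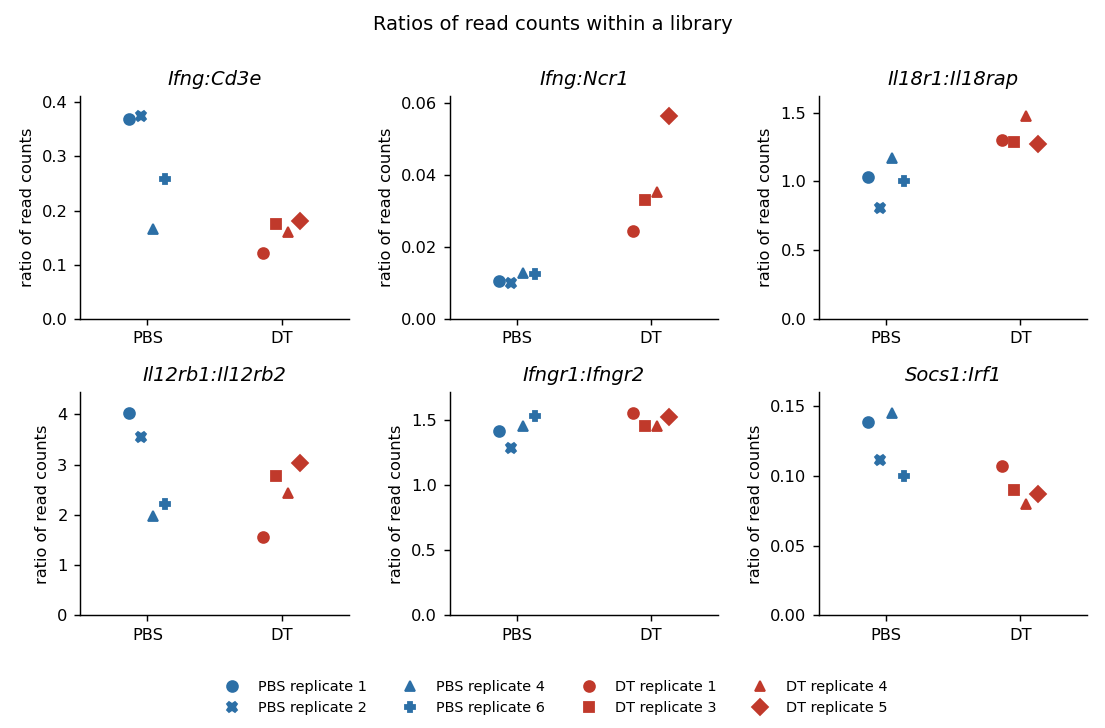
Ratio of read counts of 2 genes within each library (vertical axes start at 0), PBS-labelled in blue and DT-labelled in red, with 1 symbol per replicate. The groups do not overlap for Ifng to Ncr1 and for Il18r1 to Il18rap, and they overlap for the other 4 ratios.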

How the data were processed

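RNA was measured in 8 libraries, 4 per group. Read counts (whole numbers) were deposited for each Ensembl gene by the authors, and the series table and the library tables differed in 0 cells. The build GRCm38 and the tools featureCounts, HISAT2, Trimmomatic, DESeq2 and SAMtools are named in the submitters' processing notes. Tool versions, annotation and strand setting: not given in the sources used here. IDs were matched to GENCODE M21 (49326 of 49585, unmatched IDs holding 0.076% of counts). Counts were filtered with filterByExpr (minimum count 10, minimum total 15), scaled by TMM and tested in R 4.3.3 with edgeR 4.0.16 (robust quasi-likelihood, treatment as the only term, two-sided). DESeq2 1.42.0 and limma 3.58.1 were alternatives. The common dispersion was 0.0626. Ratios used counts plus 0.5 and two-sided exact permutation tests. No library pair agreed within sampling noise (smallest chi-square per degree of freedom 26.3 over 28 pairs). Shared windows are 75-base stretches found in another gene's transcripts (Python 3.11.15). Named genes were the 9, ratio partners, up to 3 per role of the axis list and 4 targets by smallest p, 4 nearest profiles for 3 genes, and the top 2 of each marker list. The 9 genes, lists and alternatives were chosen with earlier results of these data known. Pairing by replicate number could not be established: 2 numbers are shared, and the same-numbered libraries correlated at -0.491 (replicate 1) and 0.321 (replicate 4) across genes after group means were removed. 1 gene that the rule named is not reported here.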

Additional observations from a re-analysis of the deposited data

Results flagged for a closer look

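Among the 60 named genes, each examined in both groups of 4, 5 values stood far from the other 3 of their group, with a gap to the nearest of at least 0.831 of the group's range. Chance alone marks about 1 in 20 groups in this way. Il18 measured 1.53 CPM in DT-labelled replicate 1, above the other 3. Cd247 measured 13.7 CPM in DT-labelled replicate 1, the highest of its group. Ncr1 measured 5.16 CPM in DT-labelled replicate 5, the lowest of its group. Tyk2 measured 47.1 CPM in PBS-labelled replicate 4, the lowest of its group. The embryonic globin gene Hba-x measured 120 CPM in PBS-labelled replicate 2. None of the 9 genes was among them.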

How the results depend on the processing

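With all libraries and edgeR, 1 of the 9 genes, 0 of the axis genes, 3 of the targets and 73 of all genes were called higher, and 1 of all genes was called lower. DESeq2 called 4, 3, 8 and 275 higher and 58 lower. Scaling by library size only put the all-gene median of the log2 differences at 0.12. It called 2 of the 9, 1 axis gene, 6 targets and 78 of all genes higher and 2 of all genes lower. Of the 9 genes 2 were called with no low count filter, 2 with a mean CPM of at least 1 (where Ifng was filtered out and has no value) and 2 with a non-robust fit. In the same order, 67, 72 and 79 of all genes were called higher. Without 1 replicate at a time, 0 to 2 of the 9, 0 to 2 axis genes, 0 to 9 targets and 0 to 115 of all genes were called higher, and 0 to 5 of all genes lower. With the conceptus score as a covariate, 0 of the 9, 2 targets and 33 of all genes were called higher and 0 lower. With PBS-labelled replicates 1 and 2 left out together, 0 of the 9, 0 targets and 0 of all genes were called higher. An alternative chosen after seeing the data also left out DT-labelled replicate 1. It called 1 of the 9, 1 axis gene, 6 targets and 61 of all genes higher. The replicate block could use 4 libraries, numbers 1 and 4 of each group, and called 0 of the 9, 0 targets and 0 of all genes higher and 0 lower. The causes of these shifts were not tested, beyond there being fewer libraries where some were left out. Each of the 6 ratios kept its sign in the 10 alternatives run for it (each library left out, or another number of counts added). None had passed with all libraries. With 4 libraries against 4, or 3 against 4, a ratio can pass after adjustment only if several of the 6 reach the smallest exact p together. The kept signs therefore say nothing about stability against the threshold.

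Signs turned only for genes that did not pass in the fit concerned. With the conceptus covariate the log2 difference was 0.114 for Il12rb1, 0.0212 for Ncr1, -0.0603 for Il12rb2, -0.0237 for Jak1 and 0.106 for Myd88. Without PBS-labelled replicates 1 and 2 it was 0.129 for Il12rb1, 0.0545 for Ncr1, -0.0641 for Il12rb2, 0.00727 for Il2rb and 0.097 for Myd88. Without these and DT-labelled replicate 1 it was 0.255 for Il12rb1, 0.0397 for Ncr1, -0.128 for Il12rb2, -0.0513 for Il12b, 0.0917 for Il2rb, 0.0114 for Tyk2, -0.0713 for Jak1, 0.144 for Myd88 and 0.0463 for Eomes. By library size only it was 0.0442 for Ncr1 and 0.085 for Myd88. For Hlx it was -0.0339 by limma voom and -0.278 with the replicate block. Without 1 replicate at a time it ran from -0.161 to 0.000102 for Ncr1, from -0.0375 to 0.0633 for Il12rb2, from -0.0802 to 0.021 for Myd88 and from -0.132 to 0.198 for Hlx. Ifng has 6 to 8 reads in each PBS-labelled library, so depth limits the precision of its fold.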
